A study of Mus musculus with 2 samples.

Results

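Beyond the first 3.5 Mb of the mouse chromosomes lay 228 of 313 CUT&RUN peaks, those whose summits fall on chromosomes 1 to 19, X or Y above that position, at 163 distinct places. They were taken by position alone, from the peak lists that the authors called in each of 2 libraries. The list made with an antibody against HIF-1α gave 159 of its 219 peaks (72.6%, exact Clopper-Pearson 95% interval 66.2 to 78.4), and the list made with an antibody against PPAR-γ gave 69 of its 94 (73.4%, 63.3 to 82.0). Of the others, 49 had summits at or below that limit and 36 lay on unplaced, random or mitochondrial sequence. Nearest inside the limit were a HIF-1α peak of 13 tags 53.1 kb from Frmd4a, at 3.96 Mb of chromosome 2, and a PPAR-γ peak of 10 tags in Ncoa1, at 4.42 Mb of chromosome 12. Just outside it, at 3.37 Mb of chromosome 13, both lists had a peak near Gdi2, with 56 HIF-1α and 28 PPAR-γ tags.

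CUT&RUN maps where a protein sits on DNA: an antibody binds its target in permeabilised cells, protein A-tethered micrococcal nuclease cuts beside it, and the released fragments are sequenced. Both libraries came from untreated C57BL/6 male mice of 4 months with the genotype Foxp3Cre, in which Cre is made under control of the regulatory T cell gene Foxp3. The cells were adipose regulatory T cells sorted as TCRβ+CD4+CD25hiYFP+, so every sample carries the Cre allele and no control antibody, hypoxia or drug arm was analysed here. Each antibody had 1 library. The labels do not say how many mice were pooled, and no difference between the lists has a replicate check, so no p-value is given between them. The anti-HIF-1α library kept 5737208 tags after duplicate removal and the anti-PPAR-γ library 2145910, a ratio of 2.674.

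HIF-1α is the oxygen-regulated subunit of the hypoxia-inducible factor. With its partner ARNT it binds the core hypoxia response element, ACGTG or GCGTG, and switches on genes of glycolysis, glucose uptake, collagen maturation and angiogenesis. PPAR-γ is a lipid-sensing nuclear receptor that binds direct repeats as a heterodimer with RXR, drives adipocyte differentiation and is required for regulatory T cells to accumulate in visceral fat. A factor's peaks are commonly found at gene starts and in distant enhancers.

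The sequences that bear on gene starts are given first, because only a few peaks reached one. A start was tested against RefSeq windows of 300 bases on GRCm38.p6, the assembly behind mm10, from 250 bases before to 50 after each annotated start, and 7 HIF-1α peaks touched 8 such windows while 1 PPAR-γ peak touched 1. The 250 bases before the start are given for 4 of the HIF-1α genes, chosen because no other protein-coding gene overlaps the window, and for the PPAR-γ gene, 5′ to 3′ in the direction of the gene. Capitals mark every ACGTG or GCGTG found on either strand, so that CACGT and CACGC are the same letters read on the other strand.
Pgk1: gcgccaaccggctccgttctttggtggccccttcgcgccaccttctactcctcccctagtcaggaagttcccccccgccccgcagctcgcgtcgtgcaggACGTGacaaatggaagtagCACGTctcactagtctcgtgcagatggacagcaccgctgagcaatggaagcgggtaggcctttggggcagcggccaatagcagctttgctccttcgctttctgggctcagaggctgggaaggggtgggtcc
Wapl: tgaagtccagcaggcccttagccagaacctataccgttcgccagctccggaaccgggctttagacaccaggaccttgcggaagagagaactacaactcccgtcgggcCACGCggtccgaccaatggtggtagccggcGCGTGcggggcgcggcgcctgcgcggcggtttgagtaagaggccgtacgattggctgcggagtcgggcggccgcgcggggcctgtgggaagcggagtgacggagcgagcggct
Vmn2r29: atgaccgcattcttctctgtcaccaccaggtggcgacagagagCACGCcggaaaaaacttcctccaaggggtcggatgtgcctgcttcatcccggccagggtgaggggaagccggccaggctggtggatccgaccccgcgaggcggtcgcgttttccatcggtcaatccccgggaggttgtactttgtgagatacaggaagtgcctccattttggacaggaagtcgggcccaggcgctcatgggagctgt
Gm13822: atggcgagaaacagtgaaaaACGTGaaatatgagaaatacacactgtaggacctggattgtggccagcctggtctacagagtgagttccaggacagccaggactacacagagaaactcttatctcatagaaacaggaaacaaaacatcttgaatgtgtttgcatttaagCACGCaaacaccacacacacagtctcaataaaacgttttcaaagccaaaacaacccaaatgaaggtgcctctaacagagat
Gm15564: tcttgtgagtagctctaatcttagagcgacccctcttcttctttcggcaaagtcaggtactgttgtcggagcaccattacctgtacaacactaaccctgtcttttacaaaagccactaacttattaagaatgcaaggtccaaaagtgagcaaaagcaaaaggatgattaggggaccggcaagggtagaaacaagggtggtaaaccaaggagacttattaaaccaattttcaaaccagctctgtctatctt

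These stretches lie at chrX:106186850-106187099 on the plus strand for Pgk1, chr14:34673678-34673927 on the plus strand for Wapl, chr7:7278290-7278539 on the minus strand for Vmn2r29, chr5:114922262-114922511 on the minus strand for Gm13822 and chr16:35981848-35982097 on the minus strand for Gm15564. Positions are counted from the first base of the gene as 0. Pgk1, the ATP-producing phosphoglycerate kinase of glycolysis and a textbook HIF-1 target, holds ACGTG at -150 on its own strand and at -131 on the other. The peak, of 10 tags, spans -101 to +209 with its summit at +111, so both motifs lie outside it. Wapl, which releases cohesin from chromosomes, holds GCGTG starting at -143 and -113, both inside a peak of 9 tags whose summit is at -143. Vmn2r29, a vomeronasal pheromone receptor gene, holds 1 GCGTG at -207 inside a peak of 10 tags with its summit at +12. The long noncoding RNA gene Gm13822 holds ACGTG at -230 and GCGTG at -81, both inside a peak of 16 tags whose summit is at -238.

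Across the 8 windows that HIF-1α peaks touched, 7 held ACGTG or GCGTG, and in 6 of them a copy lay inside the peak. The windows of Cdc27 and Myl4 overlap under 1 peak and their copy inside it is the same site. Over all 32851 windows of the table, 43.8% held one of these motifs (19.6% ACGTG and 32.4% GCGTG). The touched windows also held a median of 24.5 CG dinucleotides, against 7 over all windows, and both motifs contain CG, so the part of CG content in these matches was not tested. The window at Gm15564, a long noncoding RNA gene 1.58 kb from the importin gene Kpna1, held neither motif and 6 CG dinucleotides. A match is a description of letters and not a binding site, and the peaks away from these windows were not read for sequence.

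Peaks at starts of protein-coding genes were few and were found in the HIF-1α list. Within 1 kb of the start of a protein-coding gene lay 13 of 159 HIF-1α summits (8.18%, 4.42 to 13.6; 6.77% over all HIF-1α peaks on chromosomes) and 0 of 69 PPAR-γ summits, which allows a share of up to 5.21% (0.0% over all PPAR-γ peaks on chromosomes). These intervals overlap. All 13 were among the 95 HIF-1α peaks that no PPAR-γ peak overlapped, and none among the 64 that one did, where the count of 0 allows up to 5.6%. The peaks at starts were low, with 8 to 28 tags at the summit and a median of 10. Of the 13, 7 were lower than the lowest shared HIF-1α peak, which had 11 tags. Between 11 and 28 tags, where both groups have peaks, 6 of 69 without a PPAR-γ counterpart and 0 of 20 with one lay near a start. The count of 0 of 20 allows a share of up to 16.8%, so at matched height no difference was detectable.

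Besides Pgk1, Wapl and Vmn2r29, the genes at these starts had varied functions. Peaks of 10 tags lay where genes on opposite strands start close together. In 1, the summit was 122 bases past the start of Tyw5, a tRNA-modifying hydroxylase gene, and 286 past that of Maip1, a mitochondrial matrix protein gene. Another lay 94 bases past the start of Cdc27, a subunit gene of the anaphase-promoting complex, and 137 before that of Myl4, a myosin light chain gene. Hps6, needed for lysosome-related organelles, had its summit at +202 with 8 tags, and Elavl4, a neuronal RNA-binding protein gene, at +289 with 10 tags. Stub1, the gene of the chaperone-linked ubiquitin ligase CHIP, had 28 tags at +842, and Asmt, which makes the last enzyme of melatonin synthesis, had 15 tags at +816.

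Oasl1, an interferon-induced gene, shares the peak described for Gm13822, whose summit is at -741 from the Oasl1 start. Duxf3, of the double-homeobox family that acts in early embryos, had 24 tags at -506, and LOC100504180, in the same cluster of chromosome 10, had 28 tags. That gene and Gm51572, with 21 tags, were not matched to a start window and were judged by either end of the gene, so a peak there may sit at a gene's end. The long noncoding RNA gene Gm10190, inside Arhgef33 and not among the 13, had 8 tags with the summit at +30. Of the 13, 6 had a deposited −log10 p of at least 10. On the PPAR-γ side, the summits nearest a listed start were at +136 of Gm15564, with 23 tags, at +530 of the long noncoding Gm40237, with 16 tags, and at +1079 of Sspn, with 14 tags.

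**Figure D1:**
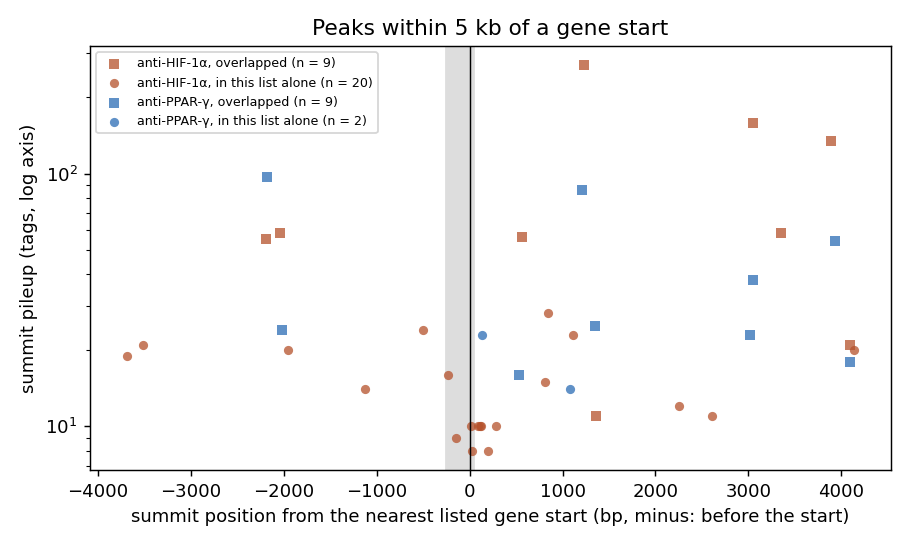
Summit pileup (extended tags, log axis) of each peak whose summit lay within 5 kb of the nearest start in the RefSeq window table (bp, minus before the start). Squares are peaks overlapped by the other list, circles peaks in 1 list alone, and the grey band is the 300-base window; the low circles at the start are HIF-1α peaks of 8 to 16 tags, while the tallest squares lie over 1 kb away.

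Few genes of any kind were near these peaks, so a short list is likely to hold none. A gene is called linked here where a peak's summit falls inside it or at most 10 kb away. Of 40 textbook HIF-1 targets, the HIF-1α list had a peak at 2, Pgk1 and P4ha2, and the PPAR-γ list at 1, P4ha2. Over all 21883 protein-coding genes, 0.425% were linked to a HIF-1α peak and 0.142% to a PPAR-γ peak. The gene lists were chosen with earlier results of these data known, so these counts are no test of enrichment. The Pgk1 peak was weak, with 10 tags and a −log10 p of 7.13. P4ha2, a subunit of the collagen-modifying prolyl hydroxylase, lay 8.51 kb from a HIF-1α peak of 41 tags and 8.56 kb from a PPAR-γ peak of 21 tags. These form 1 shared place, closer to the annotation Gm12223. The HIF-1α summit there was 39255 bases past the P4ha2 start, beyond the far end of the gene. Glucose transporter genes Slc2a1 and Slc2a3, Ldha, Pdk1 and Vegfa had no linked peak in either list. None of 34 PPAR target genes was linked in either list, among them Cd36, Fabp4, Lpl and Plin2.

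No linked peak was found at the markers of the sorted cells. This held for 20 core regulatory T cell genes, including Foxp3, Il2ra and Ctla4, for 20 genes of adipose regulatory T cells, including Pparg, Il1rl1 and Gata3, and for 20 T cell identity genes, including Cd3e and Cd4. Of the markers of other cells, 0 of 12 adipocyte, 14 macrophage, 10 B and NK cell, 12 stromal and endothelial and 16 housekeeping genes were linked. At the shares given for all genes, lists of this length say nothing about the cell type. A widening to 50 kb added no gene to any list.

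A few peaks lay at genes with roles in immune cells or in lipid metabolism, picked by role after their values were seen. Linked protein-coding genes numbered 93 for the HIF-1α list and 31 for the PPAR-γ list, and the share with such roles was not counted. Genes with neural roles, such as Chl1, Elavl4 and Gphn, also held peaks, so no theme is drawn from these picks. In the HIF-1α list alone were peaks in Dock2, a Rac activator of lymphocyte migration, with 19 tags, in Il17ra, the interleukin-17 receptor gene, with 16, in Fut8, a core fucosyltransferase gene, with 15, and in Prkdc, the DNA-dependent kinase of V(D)J joining, with 11. A peak of 24 tags lay 3.42 kb from Malt1, the protease of antigen receptor signalling, and 1 of 21 tags in the Igh locus. Litaf, a gene induced by endotoxin in macrophages, was in both lists with 16 HIF-1α and 17 PPAR-γ tags. Acacb, the acetyl-CoA carboxylase that controls fatty acid entry into mitochondria, held 33 HIF-1α and 19 PPAR-γ tags, and Ncoa1, a coactivator of nuclear receptors, held 18 and 10. Inside the T cell receptor β locus lay 5 of 159 HIF-1α and 4 of 69 PPAR-γ peaks, of 15 to 34 and 13 to 25 tags. The 4 PPAR-γ peaks each had a HIF-1α counterpart. The HIF-1α summits there fell in the variable segments Trbv3, Trbv4 and Trbv13-1 and the variable segment pseudogenes Trbv8 and Trbv29.

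Many chromosomal peaks were low. The summit pileup counts the tags, each extended to the fragment length, that cover the summit, with no scaling for depth. It ran from 6 to 493 in the HIF-1α list with a median of 19, and from 10 to 496 in the PPAR-γ list with a median of 24. Pileups of 100 or more were reached by 15 HIF-1α and 8 PPAR-γ peaks, and 84 of 159 HIF-1α peaks (52.8%) and 28 of 69 PPAR-γ peaks (40.6%) had at most 20 tags. Median fold enrichment over the local background was 8.23 for HIF-1α peaks and 10.1 for PPAR-γ peaks. These pileups, folds and −log10 p values are the authors' own.

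The fold value has a ceiling set by how it was made. The local background came from a 10000 bp window with no control library, and that window includes the peak itself. A peak alone in its window could therefore reach at most 35.2-fold in the HIF-1α library and 33.9-fold in the PPAR-γ library. The highest values were 27.5 and 27.7, both at the same place in Chl1, a neural cell adhesion gene. The tags at the summit made up a median of 41.5% of the local background for HIF-1α peaks and 63.0% for PPAR-γ peaks. A peak with others in its window therefore gets a lower fold at the same pileup.

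Sharing followed height. A PPAR-γ peak overlapped 64 of 159 HIF-1α peaks (40.3%, 32.6 to 48.3; 40.6% over all HIF-1α peaks), and a HIF-1α peak overlapped 65 of 69 PPAR-γ peaks (94.2%, 85.8 to 98.4; 94.7% over all PPAR-γ peaks). Both shares were near those of the whole lists. The 25 HIF-1α and the 16 PPAR-γ peaks with the highest −log10 p were all shared. Shared HIF-1α peaks had a median of 54.5 tags, a width of 532 bp and a local background of 2.9 tags, against 15 tags, 319 bp and 1.14 tags for those in the HIF-1α list alone. The highest of the latter had 53 tags, so the groups overlapped between 11 and 53 tags.

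**Figure D2:**
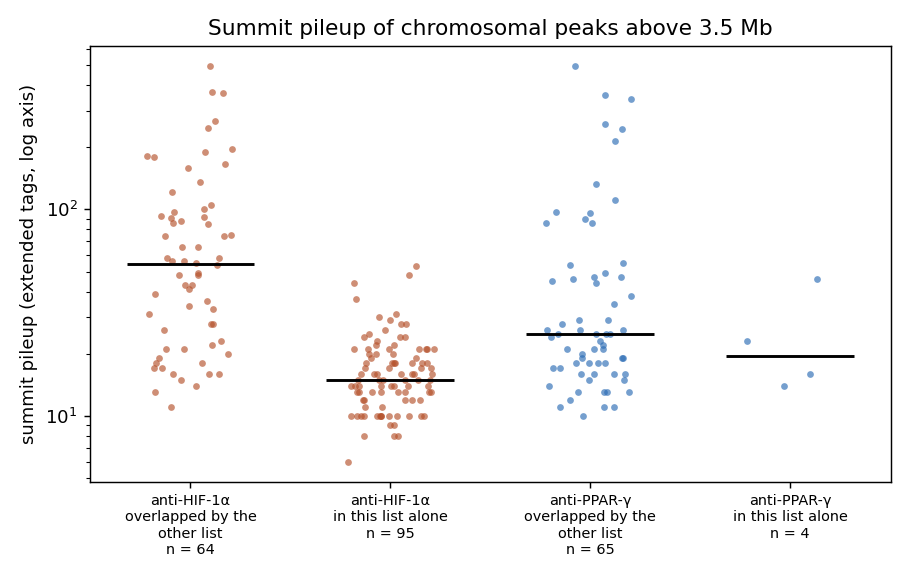
Summit pileup (extended tags, log axis, not scaled for depth) of every peak, split by library and by whether a peak of the other list overlapped it; each point is 1 peak and the bar is the median. HIF-1α peaks without a counterpart reach 53 tags, while those with one reach 493.

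The HIF-1α peaks without a counterpart can be set against the depth of the other library. At the same density per tag, they would have given a median of 5.61 tags in the shallower PPAR-γ library. The lowest −log10 p in that list, 8.44, took 8 tags at such a background, which is called the need here. The lowest −log10 q in that list was 3.59, stricter than the caller's limit of 5%, so fewer tags might have passed. Of the 64 shared HIF-1α peaks, 18 had fewer tags than needed by the same measure and were nevertheless called in the PPAR-γ library, so it does not settle which peaks would be called. For 10 of the 95, the number matching their density was at or above the need. These were the peaks in Camk2b, a calcium/calmodulin-dependent kinase gene, with 53 tags, in Zc3h7a, a zinc finger gene, with 48, in Ano2, a calcium-activated chloride channel gene, with 37, in Dpp9, a dipeptidyl peptidase gene, with 30, and in Ybx3, a cold-shock domain protein gene, with 26. The rest lay outside genes, 4.93 kb from the receptor pseudogene Vmn1r-ps60 with 44 tags, 1.48 kb from Vmn2r125 with 31, 7.9 kb from Gm18999 with 29, 8.37 kb from Rimbp3 with 22 and 937 kb from Nxph1 with 25. The Camk2b peak would have given 19.8 tags, against the 10 needed.

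Only 4 PPAR-γ peaks had no HIF-1α counterpart. They lay in Myof, a membrane repair protein gene, with 46 tags, in Gm15564 with 23, in Sspn, a gene of the dystrophin-linked complex, with 14, and 40.5 kb from Csmd3 with 16. At equal density they would have given 123, 61.5, 37.4 and 42.8 tags in the HIF-1α library, where 17, 12, 11 and 10 would have been called. The HIF-1α list has no peak at these places, and its pileup there was not used here because the lists give values only at peaks. None of the 4 is near a PPAR target gene of the list.

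The 65 overlapping pairs had nearly the same summits. Summits lay a median of 23 bp apart, within 100 bp in 56 pairs and within 10 bp in 25. At Chl1, where both lists gave their highest fold, the summits were 3 bp apart with 247 HIF-1α and 245 PPAR-γ tags. At Pak3, a kinase gene 35.3 kb away on the X chromosome, both had 26 tags at the same base. The widest gap, 2286 bp, was at the ribosomal RNA-related locus Rn18s-rs5, where the HIF-1α peak was 3102 bp wide. Pileups of the pairs moved together, with a Spearman rho of 0.796 and a Pearson r of 0.815 on the log2 scale over 65 pairs. The points of a pair share a genome position, and all points share the same 2 libraries, so these are descriptions. In 10 of 65 pairs the PPAR-γ pileup was at least as high as the HIF-1α pileup, although that library held fewer tags.

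Scaled by the ratio of remaining tags, pileups were more often higher in the PPAR-γ library, but this rests on the scaling. The median ratio of PPAR-γ to HIF-1α pileup was 1.51 (range 0.643 to 6.98). It was over 2 in 24 of 65 pairs (36.9%; 38.9% over all 90 pairs) and under 0.5 in 0 (0.0% over all pairs). The exact conditional interval of the ratio, for counting error alone, lay above 1 in 24 pairs, below 1 in 1 and included 1 in 40. With 1 tag kept per position, a pileup cannot grow freely with depth. The part of this limit in the ratios of tall pairs was not tested. When ratios were centred on the median of all pairs, 6 were over 2 and 7 under 0.5, with a median of 0.969. Centring sets the median of all 90 pairs to 1 by construction, so it cannot show which library was higher. As a ratio of fold enrichments, which compares each peak with its own neighbourhood, the median was 0.927, with 1 pair over 2 and 24 of 65 over 1. That neighbourhood includes the peak itself, which draws ratios of folds towards 1. Neither alternative can therefore decide which library was higher at a typical pair, and that was not settled here. The order of the pairs also differs between pileups and folds.

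**Figure D3:**
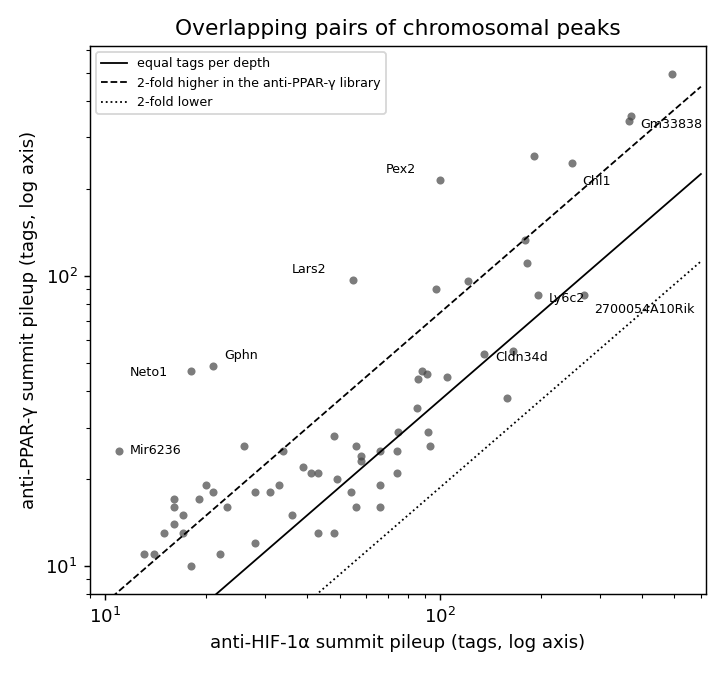
HIF-1α against PPAR-γ summit pileup (extended tags, both axes log) of the 65 overlapping pairs; the solid line is equal tags per depth and the dashed and dotted lines are 2-fold higher and lower in the PPAR-γ library. Labels give the gene at the peak or the nearest one; 24 pairs lie above the dashed line and none below the dotted one.

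The highest pileup ratios included low and tall HIF-1α peaks. The pair 697 kb from Neto1 had 18 HIF-1α and 47 PPAR-γ tags, a ratio of 6.98 (3.98 to 12.8). In Gphn, which makes the synaptic scaffold and molybdenum cofactor enzyme gephyrin, 21 and 49 tags gave 6.24 (3.67 to 10.95). The pair 282 kb from Pex2, a peroxisome assembly gene, had 100 and 214 tags and a ratio of 5.72 (4.49 to 7.33). In Lars2, the mitochondrial leucyl-tRNA synthetase gene, 55 and 97 tags gave 4.72 (3.35 to 6.69). As ratios of fold enrichments, these 4 were 1.98, 1.91, 1.19 and 1.34. The highest ratio of folds, 2.28, was at Rn18s-rs5, where 190 and 259 tags gave a pileup ratio of 3.64.

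A microRNA gene lay at another of these pairs. The long noncoding gene Gm39429 and Mir6236 had 11 HIF-1α and 25 PPAR-γ tags, a ratio of 6.08 (2.88 to 13.7), with summits 3 bp apart. The mature miRNA, printed to show the sequence under the peak, lies at chr9:110281353-110281371 on the plus strand of GRCm38.p6, within both peaks, with its seed (bases 2 to 8) in capitals.
mmu-miR-6236: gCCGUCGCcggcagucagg

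The lowest pileup ratio was in the gene 2700054A10Rik of chromosome 17, where 158 HIF-1α and 38 PPAR-γ tags gave 0.643 (0.439 to 0.921), the 1 pair with its interval below 1. Its neighbour in the same gene, with 268 and 86 tags, had 0.858 (0.665 to 1.1). Outside any annotated gene of chromosome 9, 1 HIF-1α peak of 66 tags overlapped 2 PPAR-γ peaks of 16 and 19 tags. The ratios were 0.648 and 0.77, and the HIF-1α summit lay 11.1 kb from Gm39469. In the Mediator kinase gene Cdk8, 74 and 21 tags gave 0.759 (0.444 to 1.25), in Gm525, 93 and 26 tags gave 0.747 (0.464 to 1.17), and at Gm18604, 48 and 13 tags gave 0.724 (0.36 to 1.36). Each of these intervals includes 1, apart from that of the lowest pair. By ratio of folds, the lowest pairs were others, the one 927 kb from Bcl11a with 0.507 and the pair of 85 and 35 tags near Gm2244 with 0.605.

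The ratio did not follow height in 1 direction. In the 20 pairs of under 30 HIF-1α tags the median ratio was 2.33, in the 30 pairs of 30 to 99 tags it was 1.1, and in the 15 pairs of 100 or more it was 1.99. A low HIF-1α peak enters the pairs only where the shallower library also made a call, so the lowest class leaves out places of low ratio. The limit of 1 tag per position bears most on the tallest class, and its part there was not tested. Pairs in protein-coding genes had a median ratio of 1.46 (20 pairs), those in other annotated genes 1.5 (16) and those outside any gene 1.63 (29).

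Before scaling, the tallest pairs ran from equal height to a large excess in either library. Of the 15 pairs with 100 or more HIF-1α tags, 4 had pileups within 10% of each other, 3 had the higher pileup in the PPAR-γ library, and 6 had a PPAR-γ pileup under 0.5 of the HIF-1α one. In the long noncoding gene Gm33838 of chromosome 9, which led both lists by −log10 p, the summits had 367 HIF-1α and 342 PPAR-γ tags. On chromosome 2, about 1031 kb from Lrrc4c, 2 places 4.13 kb apart had 370 and 493 HIF-1α tags against 357 and 496 PPAR-γ tags. With Chl1, these were the 4 of near-equal height. Among those far lower in the PPAR-γ library were the pairs of 2700054A10Rik and the one in the long noncoding gene Gm34259, with 165 and 55 tags. The pair 21.4 kb from Ly6c2, a lymphocyte antigen 6 gene, had 196 and 86 tags, and the claudin-like gene Cldn34d of the X chromosome had 135 and 54.

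Some peaks came in tight groups and are not independent. With gaps of at most 10 kb, 22 HIF-1α peaks formed 10 groups and 14 PPAR-γ peaks formed 6. In Tmem267, a transmembrane protein gene of chromosome 13, 3 peaks over 5.26 kb had 75, 91 and 92 HIF-1α tags and 29, 46 and 29 PPAR-γ tags. On chromosome 14, between 115 and 117 kb from Gm2244, 3 peaks had 85, 121 and 182 HIF-1α tags and 35, 96 and 111 PPAR-γ tags. Surroundings differed among the groups: the local background was over 10 tags for 12 of the 22 grouped HIF-1α peaks, and as low as 0.795 near Mid1-ps1. Outside the groups 2 more HIF-1α peaks had such a background, in Gm33838 and near Ly6c2. All 14 had a PPAR-γ counterpart. It reached 77.6 tags at Rn18s-rs5 and 75.6 near Lrrc4c, where the folds were 2.29 to 6.45 in spite of 179 to 493 tags. Over all HIF-1α peaks the median background was 1.28 tags.

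By position, the peaks were spread over the genome, and 80 HIF-1α (50.3%) and 40 PPAR-γ summits (58.0%) lay inside an annotated gene of any kind. HIF-1α peaks lay on all 21 chromosomes, with 18 on chromosome 6 and 14 on chromosome 17, and PPAR-γ peaks on 19, with 10 on chromosome 17 and none on 7 or 8. Summits fell inside a protein-coding gene for 57 HIF-1α peaks (35.8%, 28.4 to 43.8; 31.8% over all on chromosomes) and 22 PPAR-γ peaks (31.9%, 21.2 to 44.2; 25.9% over all on chromosomes). No annotated gene held 79 HIF-1α and 29 PPAR-γ summits, and 44 (27.7%) and 25 (36.2%) lay over 50 kb from any protein-coding gene. The genes that held a summit were long, with medians of 95.7 and 122 kb. A base drawn from protein-coding genes would sit in one of 138 kb at the median, so these lengths were not above that.

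The sex chromosomes held 13 HIF-1α and 6 PPAR-γ peaks. Several were close to the pseudoautosomal end of the X chromosome, the stretch it shares with the Y. There, 3.89 kb from the ubiquitin ligase gene Mid1, a pair had 17 HIF-1α and 13 PPAR-γ tags, and 4.85 kb from Erdr1 a pair had 22 and 11. At the far end of the Y chromosome, 2 HIF-1α peaks of 14 tags each lay 2.88 and 4.11 kb from the pseudogene Mid1-ps1, with no PPAR-γ counterpart. Vomeronasal or olfactory receptor genes and pseudogenes, which occur in large families of similar copies, held or lay within 10 kb of 4 of 159 HIF-1α peaks and 0 of 69 PPAR-γ peaks. The genes were Vmn2r29, Vmn2r125, Vmn1r-ps60 and Olfr854, with 10, 31, 44 and 20 tags. A count of 0 of 69 allows a share of up to 5.21%, so no difference between the lists was detectable. The share of these families among all genes was not counted.

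Widths clustered at the fragment length used to extend the tags. That length was 284 bp in the HIF-1α library and 295 bp in the PPAR-γ library, and it is the least width a peak can have. Within 16 bp of it were 45 HIF-1α peaks (28.3%) and 18 PPAR-γ peaks (26.1%), with medians of 13 and 15 tags. A second group lay just under double the length: 29 HIF-1α peaks were 504 to 563 bp wide and 8 PPAR-γ peaks 521 to 573 bp. In these, the summit was in the central 10% of the peak for 23 of 29 and 5 of 8, a median of 259 and 257.5 bp from the nearer end. In the narrow group it was in the central 10% for 4 of 45 and 1 of 18, and a median of 72 and 48 bp from the nearer end.

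Narrow HIF-1α peaks seldom had a counterpart, 5 of 45 (11.1%), while 15 of 29 (51.7%) of those just under double the length did. These groups also differed in height, with medians of 13 and 26 tags, and the part of height was not tested. Among PPAR-γ peaks, 17 of 18 and 7 of 8 did. Above double the length were 26 HIF-1α and 10 PPAR-γ peaks. The widest were the HIF-1α peaks at Rn18s-rs5 with 3102 bp, 11.1 kb from Gm39469 with 1530 bp and near Ly6c2 with 1513 bp. The widest PPAR-γ peak, of 1418 bp, was also the one near Ly6c2.

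**Figure D4:**
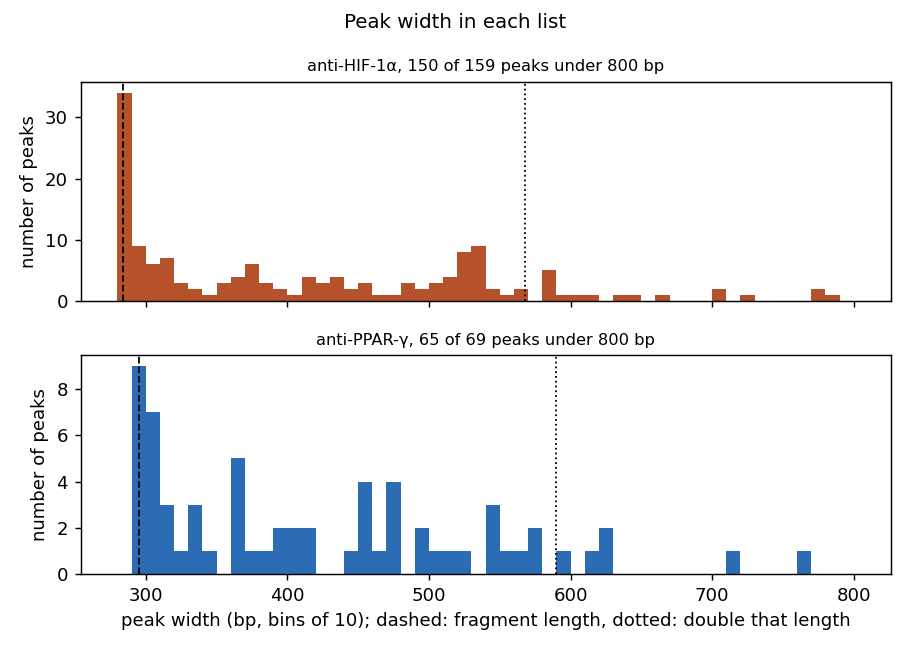
Number of peaks by width (bp, bins of 10) in each list, for widths under 800 bp; the dashed line is the fragment length and the dotted line double that length. Both lists rise at the dashed line, and the HIF-1α list has a second group just left of the dotted line.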

How the data were processed

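Each library's group is the antibody in its title. Bowtie2 2.2.5, SAMtools 1.1 and the build mm10 are listed in the submitters' processing notes, with settings not given in the sources used here. Peak calling was done by the authors with MACS 2.1.3.3, 1 library at a time and without a control, per the file headers, with a q-value limit of 5%, single-end tags, 1 tag kept per position, a genome size of 2.7 Gb and a regional window of 10000 bp. That genome size is the human preset; with 1.87 Gb for mouse, 158 of the 159 HIF-1α and 69 of the 69 PPAR-γ peaks still reached their list's lowest deposited −log10 p. The protocol mentions spike-in DNA; no scaling by it was used. The headers give 9433452 and 3403341 tags before duplicate removal, fragment lengths of 284 and 295 bp, and 5737208 and 2145910 tags kept.

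The deposited pileup is a signal, the tags over the summit. The fold enrichment deposited with each peak is a ratio, pileup over local background with 1 tag added to each, and the background was recovered from it. The deposited −log10 p and −log10 q are the caller's. Everything else was computed here with Python 3.11.15, pandas 2.3.3, NumPy 2.4.6 and SciPy 1.17.1. Peaks were shared at an overlap of at least 1 bp. Shares have exact Clopper-Pearson 95% intervals and ratios exact conditional ones; amplified reads are not independent molecules, so intervals cover counting error only. The call needed in the other library took the peak's own background scaled by depth and that library's lowest deposited −log10 p.

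Genes came from a RefSeq table of GRCm38.p6, and strand-aware starts and sequences from RefSeq windows of the same build, 32851 windows of 27025 genes, with none on chromosome 18; protein-coding genes without a window were judged by either end. Genome sequence elsewhere was not used. Genes were named where a summit lay in them or within 10 kb, otherwise as the nearest protein-coding gene, for the 15 leading peaks of each list, the 15 leading shared and HIF-1α-only peaks, every PPAR-γ-only peak, the 10 highest and lowest ratios, peaks within 1 kb of a start and listed genes. Genes with roles in immune cells or lipid metabolism were named outside this rule. Members and gene lists were chosen with earlier results of these data known. Counting steps were tested on simulated data.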

Additional observations from a re-analysis of the deposited data

How the results depend on the processing

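Alternatives were other position limits, stricter peak limits, other overlap and linking distances, and other scalings; the mouse genome size and leaving out clustered peaks were chosen after seeing the data. A count was taken as kept when it stayed within 1.5 times, and a share or median when it stayed within its 95% interval; 42 values were kept and 14 moved. Of peaks with a fold of 10 or more there were 47 for HIF-1α and 36 for PPAR-γ, with 27 shared in each list. At −log10 p of at least 10, 6 HIF-1α summits stayed near a start, and at 3 kb 3 PPAR-γ summits did. Requiring the summit inside the gene left 1 listed gene linked to a HIF-1α peak and 0 to a PPAR-γ peak. The median ratio moved to 0.969 when centred and 0.927 as a ratio of folds, the count over 2 to 6 and 1, and the count on the lower side to 7 when centred. Centring sets the median of all pairs to 1 by construction, and folds are drawn towards 1 because their background includes the peak. At a limit of 1.5-fold under the same scaling, 2 pairs were on the lower side. No paired analysis was possible because the samples hold 1 library for each antibody. The part of depth in the shorter PPAR-γ list was not tested; its lowest called summit had 10 tags.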
